A study of Mus musculus with 14 samples.

Results

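RNase H2 is the enzyme that opens genomic DNA at single ribonucleotides which DNA polymerases have built in by mistake, and it also degrades RNA in RNA-DNA hybrids. The 6 genes described here encode its 3 subunits (Rnaseh2a, Rnaseh2b and Rnaseh2c) and 3 proteins that meet the same substrates or limit how they arise (Rnaseh1, Top1 and Samhd1). They were picked by symbol from a table of 18781 mouse genes, all 6 were present, and all 6 were among the 12802 genes whose level was high enough to be tested. The question was whether the other subunits or the alternative enzymes shift when Rnaseh2b is deleted.

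RNA was sequenced from small intestinal organoids, which are cultures of intestinal epithelium grown from stem cells, kept in Intesticult medium without treatment. WT organoids (n = 4) carried loxP-flanked (floxed) alleles of both Atg16l1 and Rnaseh2b without Cre. ATG16L1_KO (n = 4) and RNaseH2bKO (n = 2) organoids carried the floxed alleles of the named gene with 1 copy of a Villin promoter-driven Cre recombinase, and DKO organoids (n = 4) carried both floxed genes with the same Cre. The Villin promoter is active in intestinal epithelium, so other cell types of the mouse keep both genes. The 2 RNaseH2bKO libraries are what remained after the study set others aside over a quality issue, which it gives as read counts. Ages of the mice were not given in the labels, and no source says how many mice each genotype came from.

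As background, RNASEH2A carries the active site, and RNASEH2B and RNASEH2C form a pair that the catalytic subunit needs for its stability and activity. RNASEH2B also holds the motif that binds the replication clamp PCNA. RNase H1 cuts longer RNA-DNA hybrids but does not act on a single embedded ribonucleotide. Topoisomerase I, the product of Top1, relaxes DNA supercoils and can cut at an embedded ribonucleotide when RNase H2 is missing, which can leave short deletions and breaks. SAMHD1 breaks down deoxynucleotide triphosphates and so affects how often ribonucleotides are built in. Mutations of the RNase H2 subunits or of SAMHD1 cause Aicardi-Goutieres syndrome, an inflammatory disease with interferon activation.

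The libraries were not evenly structured, and this touches every result below. Libraries 1 and 2 of a genotype deviated together from the genotype mean, as did libraries 3 and 4 (r from 0.41 to 0.86 across genes). Between pairs r ran from -0.90 to -0.69, which is no separate observation. Deviations from the mean of the same 4 libraries must be opposite between pairs once they agree within them. By Xist and 4 Y-linked genes each such pair came from 1 sex: male for WT 1 and 2, ATG16L1_KO 3 and 4, RNaseH2bKO 1 and 2 and DKO 1 and 2, and female for WT 3 and 4, ATG16L1_KO 1 and 2 and DKO 3 and 4. All WT libraries and DKO 3 and 4 were named for sequencing lane 1, and all others for lane 2. Differences of RNaseH2bKO or ATG16L1_KO from WT therefore coincide with lane and cannot be told apart from it. Nothing says that libraries came from separate animals, so p-values measure the spread between libraries and may be too small. Where genotypes are said below not to overlap, the share of all genes that separate in the same way was not counted. Epithelial identity was clear, since the summed level of 7 epithelial markers lay between 17.14 and 17.34 in all libraries on the log2 scale. Of 13 stromal and immune markers 11 were in the table and 3 were high enough to be tested: Vim, a mesenchymal filament gene (7.41 to 8.22), Pecam1, an endothelial marker (4.21 to 4.51), and Lyz2, a myeloid marker (3.77 to 3.94). The other 8 were lower, among them Ptprc, which marks immune cells (0.47 to 0.53), and Pdgfra, which marks mesenchyme (1.44 to 1.52). The summed level of the list lay between 7.76 and 8.24 in WT, 7.96 and 8.44 in ATG16L1_KO, 8.08 and 8.13 in RNaseH2bKO and 8.22 and 8.34 in DKO organoids. Values are the authors' log2-scale normalized values, here called levels, and differences between genotypes are log2 differences.

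**Figure D1:**
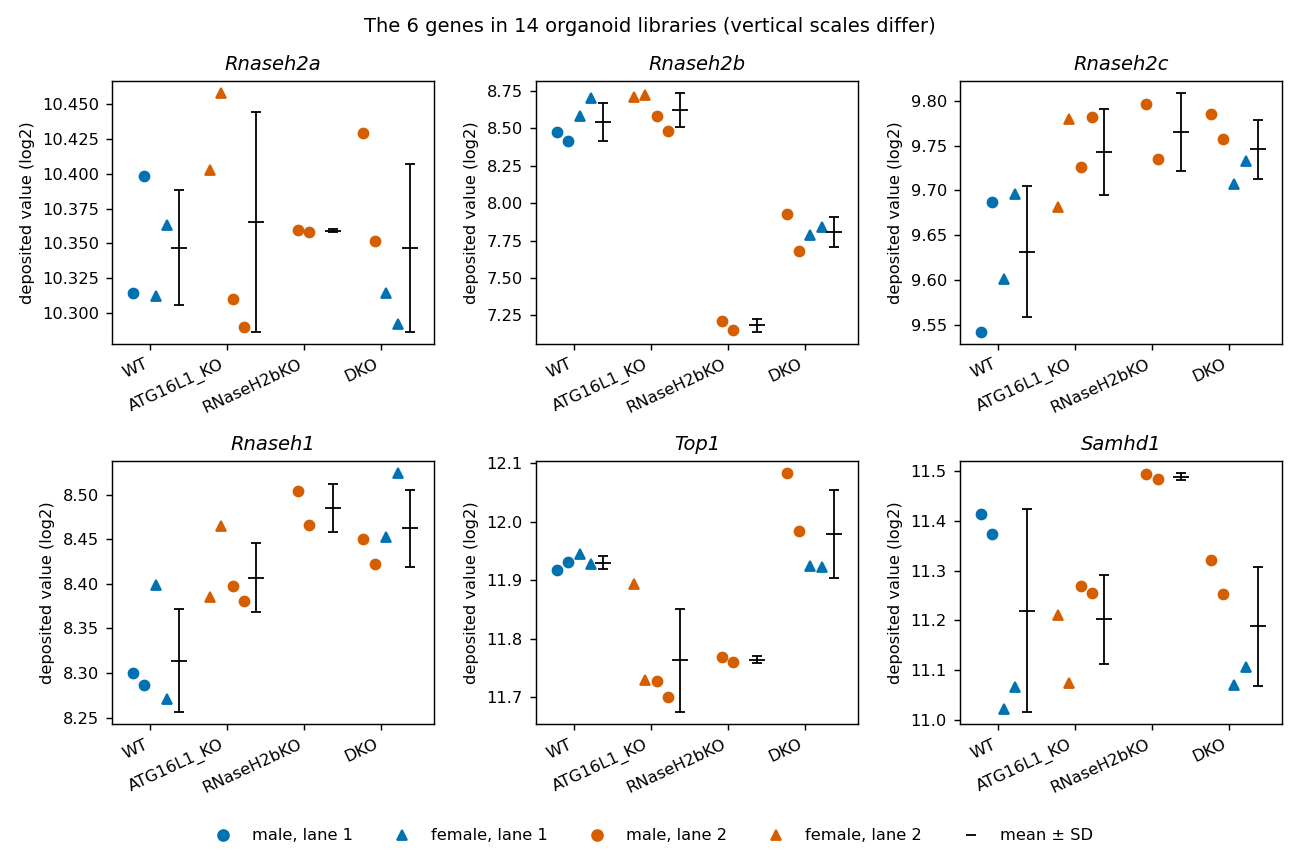
Levels (log2) of the 6 genes in each of the 14 libraries, by genotype. Circles are male and triangles female libraries, colours mark the sequencing lane, and the bar beside each group is the mean ± SD. Rnaseh2b is lower in both RNaseH2bKO and all 4 DKO libraries than in any other, Top1 is lower in ATG16L1_KO and RNaseH2bKO than in WT or DKO, and every male Samhd1 level is above every female one. Vertical scales differ between panels.

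The targeted subunit was checked first. Rnaseh2b (chromosome 14: 62292589-62372992, plus strand, GRCm38) had levels of 8.47, 8.41, 8.58 and 8.70 in WT and 8.71, 8.72, 8.58 and 8.48 in ATG16L1_KO organoids. It stood at 7.21 and 7.15 in RNaseH2bKO and at 7.92, 7.68, 7.79 and 7.84 in DKO organoids. The RNaseH2bKO, DKO and Rnaseh2b-sufficient libraries therefore formed 3 levels that did not overlap, with DKO in the middle.

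In RNaseH2bKO against WT organoids Rnaseh2b fell by 1.36 on the log2 scale (SE 0.09, limma adjusted p = 3.54e-06), which left 39.0% of the WT level. In DKO against ATG16L1_KO organoids it fell by 0.81 (SE 0.08, limma adjusted p = 3.3e-05), which left 56.9%. The second fall was smaller than the first by 0.55 (95% confidence interval 0.29 to 0.80, limma adjusted p = 0.00369 for the interaction of both deletions). DKO organoids were directly higher than RNaseH2bKO organoids by 0.63 (SE 0.09, limma adjusted p = 0.00074). The smaller fall in DKO missed the threshold once lane was a covariate (0.53, limma adjusted p = 0.0788), once the correlation within pairs was estimated (0.55, limma adjusted p = 0.0663) or once the pairs were averaged (0.55, limma adjusted p = 0.158).

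The other deleted gene showed the same order. Atg16l1, which encodes a core protein of autophagosome formation, had mean levels of 9.46 ± 0.05 in WT (SD, n = 4) and 9.52 ± 0.01 in RNaseH2bKO (SD, n = 2). It stood at 6.92 ± 0.29 in ATG16L1_KO and at 8.39 ± 0.19 in DKO organoids (SD, n = 4 each). Both deleted genes were thus higher in DKO than in the matching single knockout. The table gives 1 value per gene, so whether the remaining signal came from the exons outside the deleted part, from transcripts of cells without recombination or from both was not tested.

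Rnaseh2a, the catalytic subunit (chromosome 8: 84956610-84969767, minus strand), had nearly the same level in every genotype. WT libraries stood at 10.31, 10.40, 10.31 and 10.36, ATG16L1_KO at 10.40, 10.46, 10.31 and 10.29, RNaseH2bKO at 10.36 and 10.36, and DKO at 10.43, 10.35, 10.31 and 10.29. All 4 groups overlapped. Its difference between RNaseH2bKO and WT was 0.01 (95% confidence interval -0.10 to 0.12) and between DKO and ATG16L1_KO -0.02 (95% confidence interval -0.11 to 0.07). The intervals leave room for a fold of 0.93 to 1.09 in the first comparison and of 0.93 to 1.05 in the second. Across all 14 libraries its level spanned 0.17, and 6.16% of the tested genes had a smaller span, against a median span of 0.34.

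Rnaseh2c, the partner of RNASEH2B (chromosome 19: 5601873-5607019, plus strand), lay slightly above WT in all 3 knockouts. Its levels were 9.54, 9.69, 9.60 and 9.70 in WT, 9.68, 9.78, 9.73 and 9.78 in ATG16L1_KO, 9.80 and 9.73 in RNaseH2bKO, and 9.78, 9.76, 9.71 and 9.73 in DKO organoids. RNaseH2bKO and DKO libraries were all above the highest WT library, and ATG16L1_KO overlapped WT. The difference from WT was 0.13 in RNaseH2bKO (SE 0.05, limma adjusted p = 0.0627), 0.11 in ATG16L1_KO (SE 0.04, limma adjusted p = 0.0723) and 0.11 in DKO (SE 0.04, limma adjusted p = 0.0714). None of these passed the threshold of 0.05, and all 3 use the same WT libraries. RNaseH2bKO passed it without WT replicate 4 (0.16, limma adjusted p = 0.0479) and ATG16L1_KO without ATG16L1_KO replicate 1 (0.13, limma adjusted p = 0.0493). DKO and ATG16L1_KO differed by 0.00 (95% confidence interval -0.08 to 0.09). Of the annotated exon bases of Rnaseh2c 24.8% are shared with Kat5 on the opposite strand, and the strand setting of the read counting was not given in the sources used here.

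Because the 3 proteins work as 1 complex, their levels were set against each other within each library. The difference Rnaseh2b minus Rnaseh2a was -1.80 ± 0.14 in WT and -1.74 ± 0.05 in ATG16L1_KO (SD, n = 4 each), -3.18 ± 0.04 in RNaseH2bKO (SD, n = 2) and -2.54 ± 0.09 in DKO organoids (SD, n = 4). It shifted by -1.37 between RNaseH2bKO and WT (exact permutation test, two-sided, p = 0.0667, the smallest that 2 against 4 libraries allow; adjusted p = 0.1 over 15 tests). Between DKO and ATG16L1_KO it shifted by -0.80 (exact permutation test, two-sided, p = 0.0286, the smallest that 4 against 4 libraries allow; adjusted p = 0.0857). Against Rnaseh2c the shifts were -1.49 and -0.82, with the same p-values from the exact permutation test. The groups did not overlap in any of these 4 comparisons, and none passed the threshold after adjustment. Those of 2 against 4 libraries could not have passed it at any size of shift. Rnaseh2a itself differed by 0.01 and -0.02, so its ratio mostly restates the fall of the deleted gene Rnaseh2b.

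The 2 subunits that were not deleted lay slightly closer to each other on average in every knockout than in WT. Rnaseh2a minus Rnaseh2c was 0.77, 0.71, 0.71 and 0.67 in the WT libraries and 0.56 and 0.62 in RNaseH2bKO, while DKO libraries stood at 0.64, 0.60, 0.61 and 0.56. Every RNaseH2bKO and DKO library was below the lowest WT library. ATG16L1_KO libraries (0.72, 0.68, 0.58 and 0.51) covered almost the whole range. The shift was -0.12 between RNaseH2bKO and WT (exact permutation test, two-sided, p = 0.0667, adjusted p = 0.1). Between DKO and WT it was -0.11 (exact permutation test, two-sided, p = 0.0286, adjusted p = 0.0857). Between ATG16L1_KO and WT it was -0.09 (exact permutation test, two-sided, p = 0.2), so a lower mean was seen with Rnaseh2b intact as well. These comparisons share the WT libraries. Between DKO and ATG16L1_KO the shift was -0.02 (exact permutation test, two-sided, p = 0.686).

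**Figure D2:**
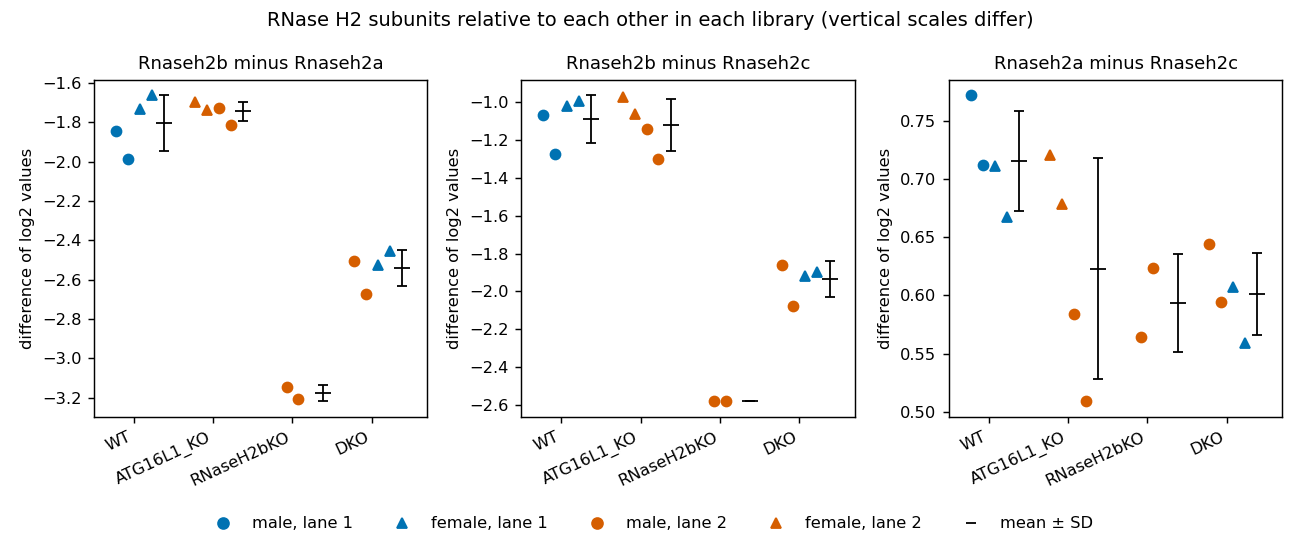
Differences between the levels of RNase H2 subunits within each library (log2 values subtracted), by genotype, with symbols as for the plot of the 6 genes and mean ± SD beside each group. Rnaseh2b against either partner falls to 3 separate levels, near -1.80 in WT, -2.54 in DKO and -3.18 in RNaseH2bKO against Rnaseh2a, while Rnaseh2a against Rnaseh2c stays between 0.51 and 0.77.

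Levels of different genes can be set side by side only per length. On the linear scale, as 2 to the power of the deposited value per kilobase of annotated exon, WT organoids had 463 ± 23.3 of Rnaseh2c, 374 ± 2.92 of Top1, 371 ± 10.7 of Rnaseh2a, 263 ± 37.0 of Samhd1, 123 ± 5.03 of Rnaseh1 and 59.9 ± 5.36 of Rnaseh2b (SD, n = 4). Top1 and Rnaseh2a overlapped, and the other neighbours in this order did not. Rnaseh2b was thus the lowest of the 6 already in WT, and RNaseH2bKO brought it to 23.3 ± 0.70 (SD, n = 2) and DKO to 36.0 ± 2.51 (SD, n = 4). These values depend on the annotated exon length, which pools all transcripts of a gene. Rnaseh2a shares 9.66% of its exon bases with Gm49661 on its own strand and 5.04% with Prdx2 on the other.

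Among the genes outside the complex, Rnaseh1 and Top1 differed between RNaseH2bKO and WT organoids in opposite directions, though genotype and lane coincide there. Counting Rnaseh2b, 3 of the 6 genes passed the threshold in this comparison, against 26.7% of all tested genes. Between DKO and ATG16L1_KO organoids 2 of the 6 passed, Rnaseh2b and Top1, against 25.1% of all tested genes. Between RNaseH2bKO and ATG16L1_KO organoids, both wholly in lane 2, 1 passed, Rnaseh2b (-1.44, SE 0.09), against 6.81%. There Top1 differed by 0.0015 (limma adjusted p = 0.991) and Rnaseh1 by 0.08 (limma adjusted p = 0.409). With the correlation within pairs estimated, Rnaseh2b alone passed in each of these 3 comparisons, and the shares of all tested genes were 5.69%, 3.73% and 0.476%. The median difference of the 6 genes was 0.07 in the first comparison and -0.01 in the second, and that of all tested genes was 0.00 in both.

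**Figure D3:**
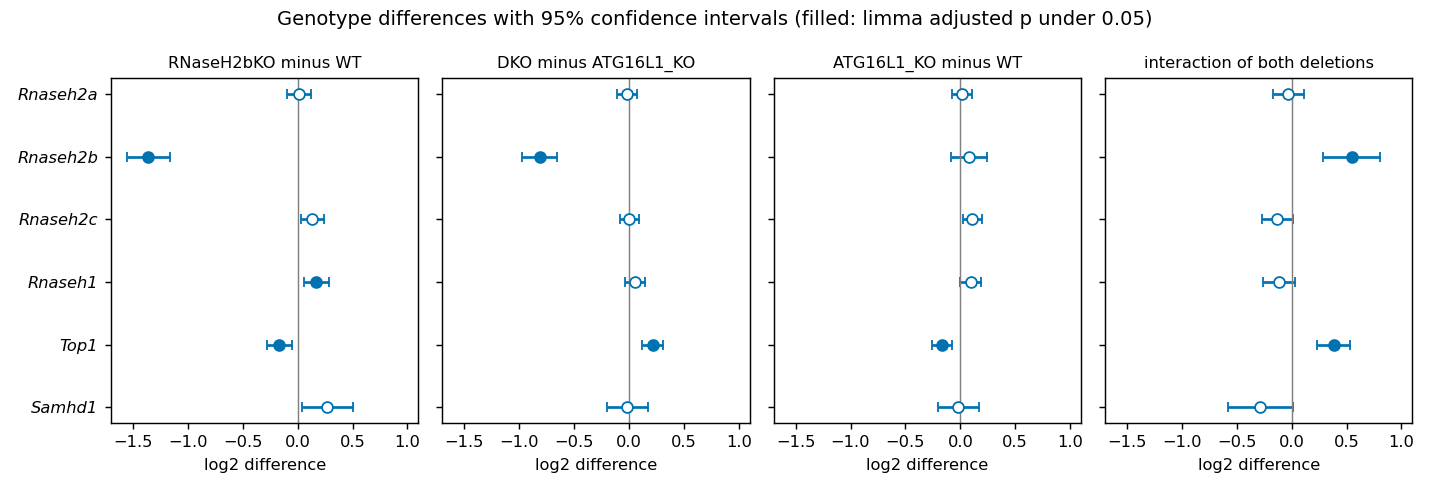
Log2 differences of the 6 genes with 95% confidence intervals in 4 comparisons from limma, filled where the adjusted p is under 0.05. Rnaseh2b stands at -1.36 in the first panel and at -0.81 in the second, Top1 differs by -0.17 in RNaseH2bKO against WT and by 0.22 in DKO against ATG16L1_KO, and Rnaseh2a at 0.01 and -0.02 in these.

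Top1 (chromosome 2: 160645888-160722764, plus strand) was the gene outside the complex with the most structured pattern. Its levels were 11.92, 11.93, 11.95 and 11.93 in WT, and 11.89, 11.73, 11.73 and 11.70 in ATG16L1_KO organoids. RNaseH2bKO organoids had 11.77 and 11.76, and DKO organoids 12.08, 11.98, 11.92 and 11.92. Both single knockouts lay below WT without overlap, and DKO lay above both single knockouts and overlapped WT.

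Against WT, Top1 fell by 0.17 in RNaseH2bKO (SE 0.05, limma adjusted p = 0.0356) and by 0.17 in ATG16L1_KO (SE 0.04, limma adjusted p = 0.0176), 2 comparisons that share the WT libraries. ATG16L1_KO against WT had Top1 as its 1 gene of the 6 past the threshold, against 19.1% of all tested genes. In DKO organoids Top1 rose by 0.22 against ATG16L1_KO (SE 0.04, limma adjusted p = 0.0044) and by 0.21 against RNaseH2bKO (SE 0.05, limma adjusted p = 0.0118), where it and Rnaseh2b were 2 of the 6 genes past the threshold against 25.5% of all tested genes. Top1 in DKO differed from WT by 0.05 (95% confidence interval -0.05 to 0.14). With Rnaseh2b deletion Top1 was thus higher where Atg16l1 was also deleted and lower where it was not. This interaction was 0.38 (95% confidence interval 0.23 to 0.53, limma adjusted p = 0.00123). A part of Atg16l1 loss in it cannot be told apart from lane or from the higher remaining levels of both deleted genes in DKO organoids. Top1 and Rnaseh2b were the 2 of 6 genes past the threshold for the interaction, against 35.1% of all tested genes. In linear terms Top1 stood at 89.1% of WT in RNaseH2bKO and at 116% of ATG16L1_KO in DKO organoids.

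The interaction of Top1 passed the threshold under each handling of the library structure other than averaging the pairs. It was 0.55 with lane as a covariate (limma adjusted p = 0.00426) and 0.38 with the correlation within pairs estimated (limma adjusted p = 0.0367). With the pairs averaged it missed the threshold at the same size (0.38, limma adjusted p = 0.123). Only DKO had libraries in both lanes, so the lane term rests on DKO 1 and 2 against DKO 3 and 4. These also differ in sex and pair, so the covariate cannot separate lane from the interaction. The separate differences of Top1 were less firm. With the correlation within pairs estimated, RNaseH2bKO against WT had a limma adjusted p of 0.272, ATG16L1_KO against WT of 0.226, DKO against ATG16L1_KO of 0.097 and DKO against RNaseH2bKO of 0.159. The fall in RNaseH2bKO missed the threshold without RNaseH2bKO replicate 1 (limma adjusted p = 0.153) or 2 (0.169), or WT replicate 2 (0.0604), 3 (0.0698) or 4 (0.0601), and the fall in ATG16L1_KO without ATG16L1_KO replicate 3 (0.0505) or 4 (0.0586). The difference between DKO and RNaseH2bKO missed it without RNaseH2bKO replicate 1 (limma adjusted p = 0.0714) or 2 (0.103). Within lane 2 alone, DKO exceeded ATG16L1_KO by 0.27 (limma adjusted p = 0.0305) and RNaseH2bKO by 0.27 (limma adjusted p = 0.00881). There DKO and RNaseH2bKO are each 1 pair of libraries, so the p-value between these 2 measures only the spread within pairs. In DKO organoids lane, pair and sex coincide, and the higher Top1 levels were the male libraries of lane 2.

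The sequence before the start of Top1 is shown because its level changed in both directions. Beside it is that of Rnaseh2c, whose level was above WT by 0.13 in RNaseH2bKO and by 0.11 in ATG16L1_KO and in DKO. These Rnaseh2c differences did not pass the threshold with all libraries. The 2 windows were taken because they hold almost no annotated exon. Both are RefSeq windows on GRCm38.p6, read 5′ to 3′ on the plus strand, from 250 bases before the RefSeq start. For Top1 the last 9 bases, which GENCODE places in an exon, are left off. Capitals mark the letters of a GC box (GGGCGG or its reverse CCGCCC), the motif that Sp1-type factors bind. CCAAT (or ATTGG) and TATAAA (or TTTATA) were searched on both strands as well, and no matches overlapped.
Top1, chr2:160645647-160645887: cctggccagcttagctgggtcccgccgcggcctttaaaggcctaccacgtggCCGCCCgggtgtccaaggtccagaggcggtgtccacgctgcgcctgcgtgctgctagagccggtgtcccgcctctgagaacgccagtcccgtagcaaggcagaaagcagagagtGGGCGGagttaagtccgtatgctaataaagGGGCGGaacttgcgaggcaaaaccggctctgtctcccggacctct
Rnaseh2c, chr19:5601623-5601872: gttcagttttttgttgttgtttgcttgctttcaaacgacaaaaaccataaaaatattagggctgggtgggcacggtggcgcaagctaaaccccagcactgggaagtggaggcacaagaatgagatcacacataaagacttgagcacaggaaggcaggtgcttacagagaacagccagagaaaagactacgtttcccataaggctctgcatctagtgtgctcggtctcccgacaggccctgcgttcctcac

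The Top1 window held 3 GC boxes at 63.6% G and C, and the Rnaseh2c window held 0 at 49.2%. Of the 32851 RefSeq windows of 250 bases in the table used, 32.7% held a GC box, 33.8% a CCAAT box and 12.4% a TATA box, and neither of these windows held the last 2. Windows for Rnaseh2a and Samhd1 lie mostly within annotated exons and are not printed. These are matches of letters in a fixed window and were not related to the levels.

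Rnaseh1 (chromosome 12: 28649602-28659589, plus strand) was slightly higher in RNaseH2bKO and DKO than in WT organoids. Its levels were 8.30, 8.29, 8.40 and 8.27 in WT, 8.39, 8.46, 8.40 and 8.38 in ATG16L1_KO, 8.50 and 8.47 in RNaseH2bKO, and 8.45, 8.42, 8.45 and 8.52 in DKO organoids. RNaseH2bKO and DKO libraries were all above WT, while DKO overlapped ATG16L1_KO. Rnaseh1 rose by 0.17 in RNaseH2bKO against WT (SE 0.05, limma adjusted p = 0.0291), a fold of 1.13, and by 0.15 in DKO against WT (SE 0.04, limma adjusted p = 0.0346), where 2 of the 6 genes passed against 16.1% of all tested genes. ATG16L1_KO organoids, which keep Rnaseh2b, differed from WT by 0.09 (95% confidence interval 0.00062 to 0.19, limma adjusted p = 0.144), which did not pass.

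Between DKO and ATG16L1_KO organoids the difference of Rnaseh1 was 0.06 (95% confidence interval -0.04 to 0.15), which did not pass the threshold. The interaction was -0.12 (limma adjusted p = 0.2), so the 2 settings were not shown to differ. The rise in RNaseH2bKO was the size at which 32.6% of all tested genes moved further. It missed the threshold with total scaling (limma adjusted p = 0.0973), with lane as a covariate (0.0811), with only the genotypes compared (0.0555), with the correlation within pairs estimated (limma adjusted p = 0.307) and in the absence of RNaseH2bKO replicate 1 (limma adjusted p = 0.194), RNaseH2bKO replicate 2 (0.106), WT replicate 1 (0.0508), WT replicate 2 (0.0609) or WT replicate 4 (0.0644). The rise in DKO was lost in the same way with the correlation within pairs estimated (limma adjusted p = 0.368) and without WT replicate 1 (0.083), 2 (0.0916) or 4 (0.0723) or DKO replicate 1 (0.0594), 3 (0.0552) or 4 (0.0755).

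Samhd1 (chromosome 2: 157097533-157135265, minus strand) was highest in the RNaseH2bKO organoids, at 11.49 and 11.48. WT libraries stood at 11.42, 11.37, 11.02 and 11.07, ATG16L1_KO at 11.21, 11.07, 11.27 and 11.26, and DKO at 11.32, 11.25, 11.07 and 11.11. RNaseH2bKO, which is 1 pair of libraries, did not overlap any other genotype, and how many genes separate in this way was not counted. The difference from WT was 0.27 (95% confidence interval 0.04 to 0.50, limma adjusted p = 0.0771) and the difference between DKO and RNaseH2bKO was -0.30 (95% confidence interval -0.53 to -0.07, limma adjusted p = 0.0537), and neither passed the threshold.

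The level of Samhd1 went with the sex of the libraries. The 8 male libraries lay between 11.25 and 11.49 and the 6 female libraries between 11.02 and 11.21, without overlap, which 0.7% of the tested autosomal genes showed. Both RNaseH2bKO libraries were male. Among male libraries alone RNaseH2bKO stood at 11.49 and WT at 11.39 on average, a difference of 0.09, and with sex as a covariate the difference was 0.16 (limma adjusted p = 0.0633). Sex, pair and whatever else the paired libraries share cannot be told apart in these data. Samhd1 also shows how 1 library can decide a call, since the difference between RNaseH2bKO and WT passed the threshold without WT replicate 1 (0.34, limma adjusted p = 0.0294) or WT replicate 2 (0.32, limma adjusted p = 0.0474), both male. The difference between DKO and RNaseH2bKO passed it without any 1 of the WT libraries (-0.30, limma adjusted p from 0.0375 to 0.0493) or without DKO replicate 1 (-0.35, limma adjusted p = 0.035). It passed too with sex as a covariate (-0.19, limma adjusted p = 0.0336) and within 1 lane (-0.20, limma adjusted p = 0.0168). Within that lane each genotype is 1 pair of libraries, so the p-value measures only the spread within pairs.

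**Figure D4:**
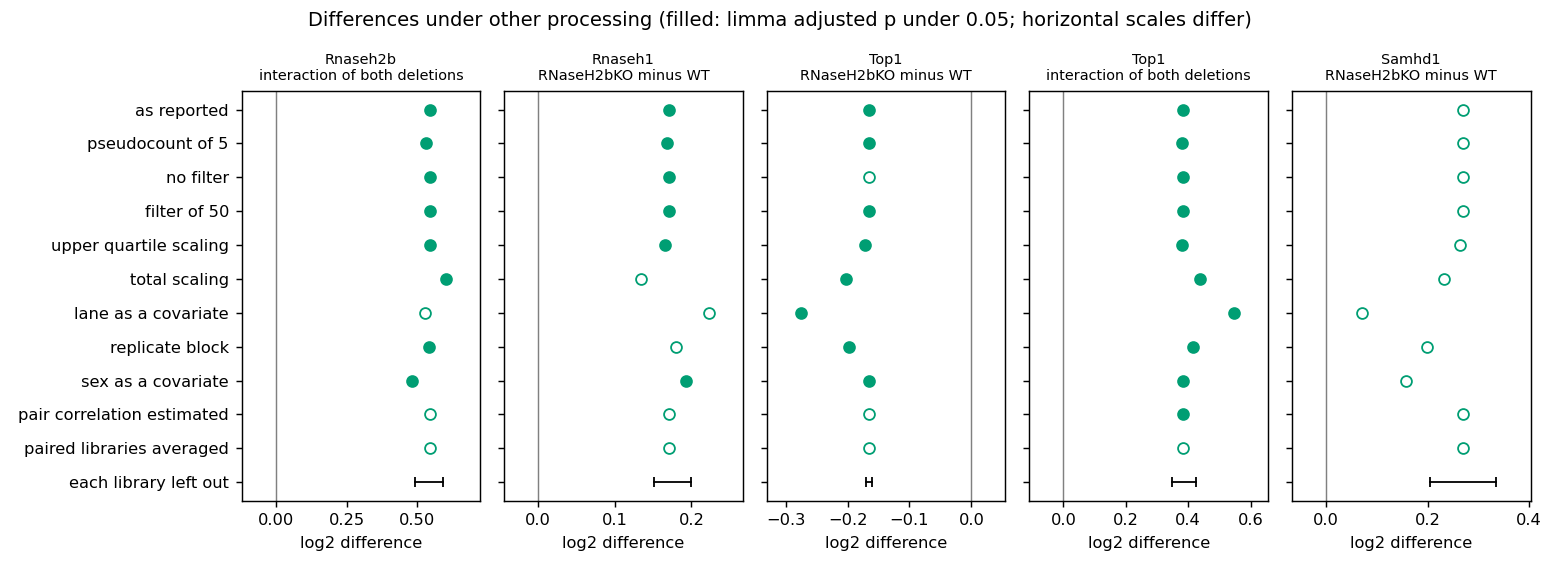
Log2 differences of 4 of the genes under other scalings, filters and handling of lanes, sex and library pairs, filled where the limma adjusted p is under 0.05; the bottom bar spans the values when each library is left out. All values keep their sign, the Top1 interaction stays filled everywhere but with the pairs averaged, and the Rnaseh1 and Top1 differences in RNaseH2bKO lose the threshold with the correlation within pairs estimated. Horizontal scales differ.

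Cell type markers moved in the same comparisons. In RNaseH2bKO against WT organoids 9 of 11 enterocyte markers rose (median difference of the list 1.03), against 26.7% of all tested genes called. With the correlation within pairs estimated 4 rose, and with lane as a covariate 3. The summed enterocyte level lay between 18.72 and 18.85 in RNaseH2bKO and between 17.68 and 18.29 in WT. Of 9 stem cell markers 2 fell in that comparison (1 with the correlation within pairs estimated), and of 10 Paneth cell markers 0 passed in limma, where 0 had an unadjusted p under 0.05. In DKO against ATG16L1_KO organoids 6 of 9 stem cell markers and 6 of 10 Paneth cell markers rose and 4 of 11 enterocyte markers fell, against 25.1% of all tested genes called. With the correlation within pairs estimated these counts were 4, 3 and 2. In ATG16L1_KO against WT 7 of 9 stem cell markers fell, against 19.1% of all tested genes called, and 2 did with the correlation within pairs estimated. The summed stem cell level lay at 15.46 to 15.60 in WT, 14.90 to 15.17 in ATG16L1_KO, 15.21 to 15.27 in RNaseH2bKO and 15.40 to 15.66 in DKO organoids. It was thus lower in both single knockouts than in WT or DKO, as was Top1. The part of the cell type make-up in the levels of Top1, Rnaseh1 and Samhd1 was not tested, and in bulk RNA fewer cells of a type and less RNA per cell cannot be told apart.

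The steps that follow RNase H2 were given by 17 genes for flap removal, gap filling and ligation. In RNaseH2bKO against WT organoids 1 rose and 1 fell: Rfc2, a subunit of the loader of PCNA, by 0.15 (SE 0.05), and Pold1, the catalytic subunit of DNA polymerase delta, by -0.18 (SE 0.05). Between DKO and ATG16L1_KO organoids 2 passed, both higher: Pold3, an accessory subunit of the same polymerase, by 0.16 (SE 0.05), and Pcna, the replication clamp, by 0.12 (SE 0.04). The remaining 15 in each comparison did not pass the threshold, among them Fen1, the flap nuclease, and Lig1, the replicative DNA ligase. The median of the list was 0.07 and 0.10, respectively. In the first comparison 12 of the 17 were higher and in the second 16, against 50.6% and 50.2% of all tested genes.

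Breaks left by topoisomerase I are repaired by the products of another 9 genes. Aptx, which removes abortive ligation intermediates, rose by 0.22 in RNaseH2bKO against WT organoids (SE 0.06) and Lig3, a DNA ligase of single-strand break repair, fell by 0.24 (SE 0.04), while 7 did not pass. Between DKO and ATG16L1_KO 3 rose and 1 fell. Parp1, the main sensor of DNA breaks, rose by 0.22 (SE 0.05) and its scaffold partner Xrcc1 by 0.11 (SE 0.03), and Parp2, a related break sensor, fell by 0.11 (SE 0.04). Lig3 rose by 0.10 in DKO against ATG16L1_KO, so its interaction was 0.35 (SE 0.05, limma adjusted p = 0.000181). In the interaction 3 of the 9 genes were positive past the threshold and 2 negative, against 35.1% of all tested genes. With the correlation within pairs estimated 1 was positive and 0 negative, against 12.1%. With lane as a covariate 1 was positive and 1 negative, against 20.2%. Tdp1, whose product releases topoisomerase I from DNA ends, did not pass in either comparison.

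Of 9 genes that resolve RNA-DNA hybrids, 1 passed in each comparison. Dhx9, an RNA helicase, rose by 0.28 in RNaseH2bKO against WT (SE 0.08), and Aqr, an RNA helicase of the spliceosome, rose by 0.18 in DKO against ATG16L1_KO (SE 0.04).

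In the nucleotide supply list, 2 of 13 genes rose and 2 fell in RNaseH2bKO against WT organoids: Rrm2, the S-phase subunit of ribonucleotide reductase, rose by 0.32 (SE 0.04) and Dtymk, which makes thymidine diphosphate, by 0.21 (SE 0.04). Dguok, a mitochondrial deoxynucleoside kinase, fell by 0.36 (SE 0.06) and Rrm2b, the p53-inducible ribonucleotide reductase subunit, by 0.24 (SE 0.07). Against ATG16L1_KO, DKO organoids had 2 that rose and 1 that fell: Dctd, which deaminates deoxycytidylate, rose by 0.29 (SE 0.09) and Rrm2 by 0.10 (SE 0.03), and Tk1, the S-phase thymidine kinase, fell by 0.15 (SE 0.04). Rrm2 was the 1 gene of these 4 lists that rose in both comparisons.

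Of 5 further genes of Aicardi-Goutieres syndrome and the cGAS pathway, 0 passed in RNaseH2bKO against WT in limma, where 1 had an unadjusted p under 0.05, and 1 passed in DKO against ATG16L1_KO (Lsm11, a histone pre-mRNA processing factor, 0.18, SE 0.06). Of 16 proliferation genes 3 fell in the first comparison, among them Top2a by 0.21 (SE 0.05) and Bub1 by 0.19 (SE 0.06), and 1 rose in the second (Plk1, 0.13, SE 0.05). The shares of all tested genes called in these comparisons, 26.7% and 25.1%, were above the share in most of these lists. With the correlation within pairs estimated, the genes of these 6 lists still past the threshold were Lig3 and Rrm2 in RNaseH2bKO against WT (limma adjusted p = 0.0372 and 0.0212). None did in DKO against ATG16L1_KO, where limma gave 1 gene of TOP1-made break repair, 1 of hybrid resolution and 2 of nucleotide supply an unadjusted p under 0.05. With lane as a covariate, 7 of the 17 excision and resynthesis genes rose there and 1 fell, and 6 of 16 proliferation genes rose. Of 9 hybrid resolution genes 4 rose, and of 9 for TOP1-made breaks 4 rose and 1 fell, against 31.1% of all tested genes. In RNaseH2bKO against WT this covariate left 2 proliferation genes and 1 TOP1-made break gene lower and 1 nucleotide supply gene higher, against 11.7%. The lane term rests on DKO pairs that also differ in sex.

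**Figure D5:**
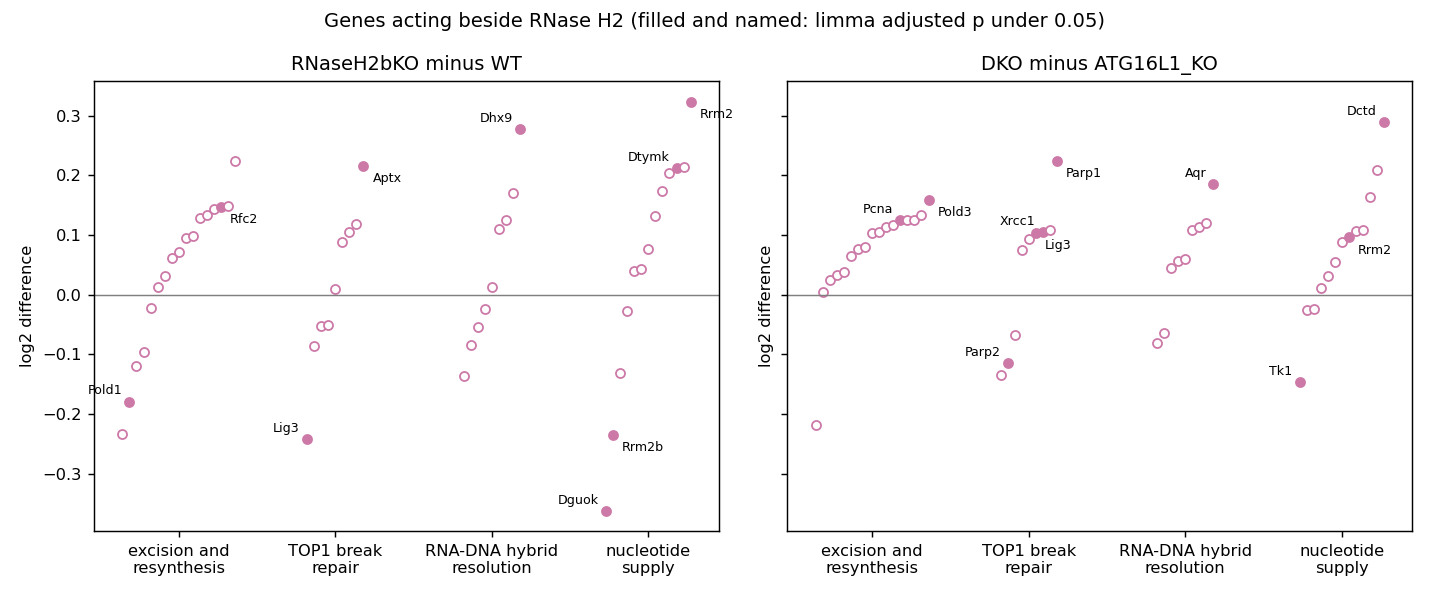
Log2 differences of single genes (points) in 4 lists of genes that act beside RNase H2, in RNaseH2bKO against WT and in DKO against ATG16L1_KO organoids, filled and named where the limma adjusted p is under 0.05. Rrm2 (0.32) and Dguok (-0.36) mark the ends of the first panel, and Dctd (0.29) the top of the second.

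Genes beside Rnaseh2b on chromosome 14 were read to see how far the fall extended. Of 22 other protein-coding genes with a start within 1 Mb, 11 were tested. In RNaseH2bKO against WT 2 passed, against 26.7% of all tested genes, both higher, Trim13 by 0.25 (SE 0.08) and Fdft1 by 0.14 (SE 0.04). Between DKO and ATG16L1_KO 4 passed, against 25.1% of all tested genes: Ebpl fell by 0.32 (SE 0.06), Trim13 by 0.25 (SE 0.06), Fam124a by 0.15 (SE 0.03) and Fdft1 by 0.11 (SE 0.04). In RNaseH2bKO against WT Ebpl stood at 0.11 and Fam124a at -0.06, and neither passed the threshold.

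Over the 14 libraries the 6 genes did not vary as a block. Pearson's r of Rnaseh2b was 0.11 with Rnaseh2a, -0.41 with Rnaseh2c, -0.63 with Rnaseh1, -0.03 with Top1 and -0.52 with Samhd1, as descriptions over libraries that share genotypes, lanes and pairs. Of all 12802 tested genes, Cask, Eef1b2 and Rack1 were most like Rnaseh2b (r = 0.94, 0.92 and 0.92), and Atm, Smchd1 and Nup160 most like Top1 (r = 0.97, 0.97 and 0.96). Hmgn5, Fmc1 and Sun3 were most like Rnaseh2a (r from 0.82 to 0.86) and Gm4285, Phb2 and Nol7 most like Rnaseh2c (r from 0.87 to 0.89). For Rnaseh1 these were Mtap, Wdr34 and Hnrnpd (r from 0.85 to 0.87), and for Samhd1 Pcdhga10, Agpat3 and Daglb (r = 0.95 each).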

How the data were processed

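Total RNA of 14 untreated organoid cultures was sequenced as stranded mRNA libraries with single 50-base reads. After trimming with cutadapt, the authors mapped reads by TopHat2 to GRCm38 and obtained gene values with HTSeq and DESeq2, whose versions are not given in the sources used here. The authors deposited 1 table of log2 values for 18781 genes, whose transformation is not named. Low genes vary little in it, so differences may be understated, and the depth is unknown. All columns were mapped to samples by library name, and symbols and coordinates are from GENCODE M21.

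The 12802 genes whose mean reached 10 on the linear scale (3.32 as log2) were tested with limma 3.58.1 in R 4.3.3 (1 mean per genotype, all 14 libraries, moderated variance with a mean trend, Benjamini-Hochberg adjustment, threshold 0.05, 7 comparisons). Subunit ratios were compared with two-sided exact permutation tests. The method was checked on simulated data. Named genes are the 6 members, Atg16l1, the 2 largest rises and falls past the threshold in each further list, neighbours of Rnaseh2b and the 3 most alike genes per member. Other genes were named after their values were seen. In the lists, 2 genes are not reported here. The members and lists were chosen with earlier results of these data known. Replicate numbers did not pair the genotypes. Alternatives were pseudocounts of 1 and 5, no filter or one of 50, upper quartile and total scaling, lane, replicate block, single lanes, only the genotypes compared, paired libraries averaged or correlated, no mean trend and each library left out. Sex, as a covariate or by male libraries alone, was added after seeing the data. Figures were drawn with matplotlib 3.10.9.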

Additional observations from a re-analysis of the deposited data

Results flagged for a closer look

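In the interaction test 2 of the 6 genes passed the threshold, against 35.1% of all tested genes, and 1 of the 2 is the deleted gene Rnaseh2b. The difference was 0.55 for Rnaseh2b (limma adjusted p = 0.00369) and 0.38 for Top1 (limma adjusted p = 0.00123). That of Rnaseh2b missed the threshold with lane as a covariate (limma adjusted p = 0.0788) or the correlation within pairs estimated (0.0663). With the pairs averaged both missed it (limma adjusted p = 0.158 for Rnaseh2b and 0.123 for Top1). For Top1 both RNaseH2bKO libraries lay below all 4 WT libraries and all 4 DKO libraries lay above all 4 ATG16L1_KO libraries. How many genes separate in this way was not counted.

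Top1 in ATG16L1_KO replicate 1 stood at 11.89, away from the other 3 ATG16L1_KO libraries (11.73, 11.73 and 11.70), with a gap of 0.85 of the group's range against a critical value of 0.829 for 4 libraries. It was the 1 such library in 18 groups checked. Chance flags about 1 group in 20 where the 4 libraries are independent, and the rate for libraries that deviate in pairs was not worked out. Without it, the difference of Top1 between ATG16L1_KO and WT was -0.21 in place of -0.17.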

How the results depend on the processing

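Of 680 alternative values of single genes, 601 kept direction and side of the threshold, 49 lost and 15 gained the threshold, and 15 changed sign, all of differences that had not passed it. All 162 alternative values of the subunit ratios moved by less than 1 SD, taken as the larger SD of the groups compared. Leaving out a library or averaging the pairs cannot move a ratio by that much, so those values could not have differed. The number of the 6 genes past the threshold in limma depended most on how paired libraries were treated. With pairs averaged it was 0 in all 7 comparisons, where 1 or 2 genes had an unadjusted p under 0.05, and all tested genes in RNaseH2bKO against WT gave 0 calls in place of 3424. With the correlation within pairs estimated (0.645) it was 1 in RNaseH2bKO against WT (728 of all genes), DKO against ATG16L1_KO, the interaction, DKO against WT and DKO against RNaseH2bKO, and 0 in ATG16L1_KO against WT, where 1 had an unadjusted p under 0.05. The shares of all tested genes were 5.69%, 3.73%, 12.1%, 0.664%, 5.41% and 3%, in that order. Lane as a covariate left 1 in the interaction, against 20.2% of all tested genes. In DKO against WT the number was 1 with only the genotypes compared (9.84% of all tested genes) or within 1 lane (10.2%), and 4 among male libraries (41.7%). Male libraries gave 2 in ATG16L1_KO against WT (31.6% of all tested genes) and 2 in RNaseH2bKO against ATG16L1_KO (22.3%). In the latter only the genotypes compared also gave 2 (6.51%). Among male libraries each genotype is 1 pair of libraries, and the choice of male libraries was made after seeing the data. Leaving out each library gave 1 to 3 in RNaseH2bKO against WT, 0 to 2 in ATG16L1_KO against WT, 1 to 2 in DKO against WT and 1 to 3 in DKO against RNaseH2bKO. The shares of all tested genes then ran from 8.87% to 29.9%, 13% to 22.4%, 7.82% to 16.2% and 5.91% to 25.7%, in that order.

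Replicate numbers share only a label across genotypes (r of same-numbered deviations from -0.50 to 0.44). With the replicate number as a block, 1 of the 6 genes passed in DKO against WT in place of 2 and 2 in RNaseH2bKO against WT in place of 3, the Rnaseh1 calls being lost (limma adjusted p = 0.0507 and 0.0515). The shares of all tested genes were 16.6% and 22.6%.

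Differences that changed sign were small. Rnaseh2a in RNaseH2bKO against WT became -0.025 with total scaling, -0.075 with lane and -0.027 with the replicate block. In DKO against ATG16L1_KO it became 0.00064 with total scaling, 0.025 with lane or within 1 lane, 0.090 among male libraries, and -0.046 to 0.013 with each library left out. Rnaseh2c there became -0.0053 with upper quartile scaling, and -0.017 to 0.016 with each library left out. Top1 in DKO against WT became -0.0067 with lane or within 1 lane. The causes were not tested. Without counts, depth could not be judged, and 2 RNaseH2bKO libraries limit every comparison with them.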
